A study of Rattus norvegicus with 6 samples.

Results

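The 10 genes described here encode the cytosolic sensors of RNA and DNA and the proteins that relay their signal, and they were taken by symbol from the 21857 gene symbols counted in each library. They are Ddx58 (RIG-I), Ifih1 (MDA5) and Dhx58 (LGP2), Mavs, Mb21d1 (cGAS), Tmem173 (STING), Aim2, Zbp1, Tbk1 and Eif2ak2 (PKR). RNA-seq was performed on 6 libraries of neonatal rat cardiac fibroblasts (NRCFs), primary cells from hearts of rats at most 3 days old, given as Sprague-Dawley in the design and as strain "Noway" in the sample labels. The Vector group (3 libraries, genotype WT) received the empty plasmid, and the other group (3 libraries, genotype FTO overexpression) received a plasmid with rat FTO cDNA, which encodes an enzyme that removes N6-methyladenosine from RNA. Both groups were therefore given plasmid DNA, with a lipid reagent, and the study's methods give 48 h from transfection to collection. No library of untransfected cells was analysed here. The sources used here do not say how many animals or cultures stand behind each library, nor whether the sequenced cells were kept in hypoxia, so p-values measure the spread between these libraries only.

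Cells recognise foreign or misplaced nucleic acid in the cytosol with a small set of receptors. RIG-I and MDA5 bind double-stranded RNA and signal through MAVS on mitochondria, while LGP2, a relative without the signalling domains, modulates them. cGAS binds DNA and makes a cyclic dinucleotide that activates STING, and both arms meet at the kinases TBK1 and IKKε, which phosphorylate IRF3 and IRF7 and so switch on interferon genes. AIM2 binds DNA and builds an inflammasome with the adaptor Pycard, ZBP1 binds Z-form nucleic acid and acts through RIPK3, and PKR halts translation by phosphorylating eIF2α when it binds double-stranded RNA. Many of these genes are themselves induced by interferon, and fibroblasts are a classical cell type for such responses.

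The libraries held 13178952 to 17857999 counts. Fto, the gene on the plasmid, was at 88.3 ± 1.20 CPM (the count scaled to a common library total, with TMM factors) in Vector and at 92.3 ± 1.32 CPM in the other group (SD, n = 3 each), a log2 fold change of 0.06 (standard error, SE, 0.0468). The edgeR quasi-likelihood test gave it an adjusted p-value of 0.239, although its 3 libraries labelled FTO (90.8 to 93.2 CPM) lay just above the 3 of Vector (87.4 to 89.6 CPM). A rise of Fto past the threshold was not detected in these libraries, and the second group is called the libraries labelled FTO. The study also measured FTO after plasmid transfection by qRT-PCR and western blot, and reported that the transfection worked. Those measurements were not examined here. Pairs of libraries within a group were further apart than counting error alone gives (chi-square over its degrees of freedom 1.58 to 8.38), so no library looked deposited more than once. Fibroblast markers summed to 41720 to 42330 CPM in Vector and 22290 to 23220 CPM in the libraries labelled FTO, and all 11 were detected in both. Of the 11, 6 were higher (Dcn, 47.0 ± 1.57 against 5610 ± 220.6 CPM, among them) and 5 lower, and the sum was mostly Col1a1 (25809 against 8268 CPM) and Col3a1 (10699 against 3338 CPM). Macrophage and other leukocyte markers (21 found) summed to 1948 to 2012 CPM in Vector and 332.5 to 375.2 CPM in the libraries labelled FTO, with 15 of 16 tested genes lower. Adgre1 was the 1 that was higher, and the lymphocyte markers Cd3e and Nkg7 were at 0 in both groups. Cardiomyocyte markers summed to 1782 to 1818 CPM in Vector and 2826 to 2931 CPM in the libraries labelled FTO, with 10 of 11 tested genes higher and 1 lower. Endothelial markers summed to 33.6 to 34.9 CPM in Vector and 51.0 to 51.6 CPM in the libraries labelled FTO (3 of 6 tested higher, 2 lower), and pericyte and smooth muscle markers to 1562 to 1629 and 1319 to 1400 CPM, with 3 of 7 tested genes higher and 4 lower. In bulk RNA, fewer cells of a type and less RNA per cell cannot be told apart. The part that these marker differences have in the results below was not tested.

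Of the 10 genes, 9 were higher and 1, Mavs, was lower in the libraries labelled FTO by the edgeR test (adjusted p-value under 0.05), against 33.2% of the 12941 genes tested that were higher, 32.8% that were lower and 65.9% called in either direction. The groups did not overlap in CPM for any of the 10, which held for 70.3% of all genes tested. The 10 genes were chosen with earlier results of these data known, so these shares are a description only. At the threshold the study used, a change of 1 or more on the log2 scale with an unadjusted p-value under 0.05, 6 of the 10 passed and all 6 were higher, against 19.6% of genes tested in either direction, 10.4% higher and 9.27% lower. Aim2 and Zbp1 passed the filter on low counts only through the libraries labelled FTO, so they had to differ. Of the other 8, 7 were higher, 1 was lower and 4 passed the study's threshold, with a median log2 fold change of 1.31 against 0.00 over all genes tested. The plot of levels in each library shows how far the 10 genes differed among themselves.

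**Figure D1:**
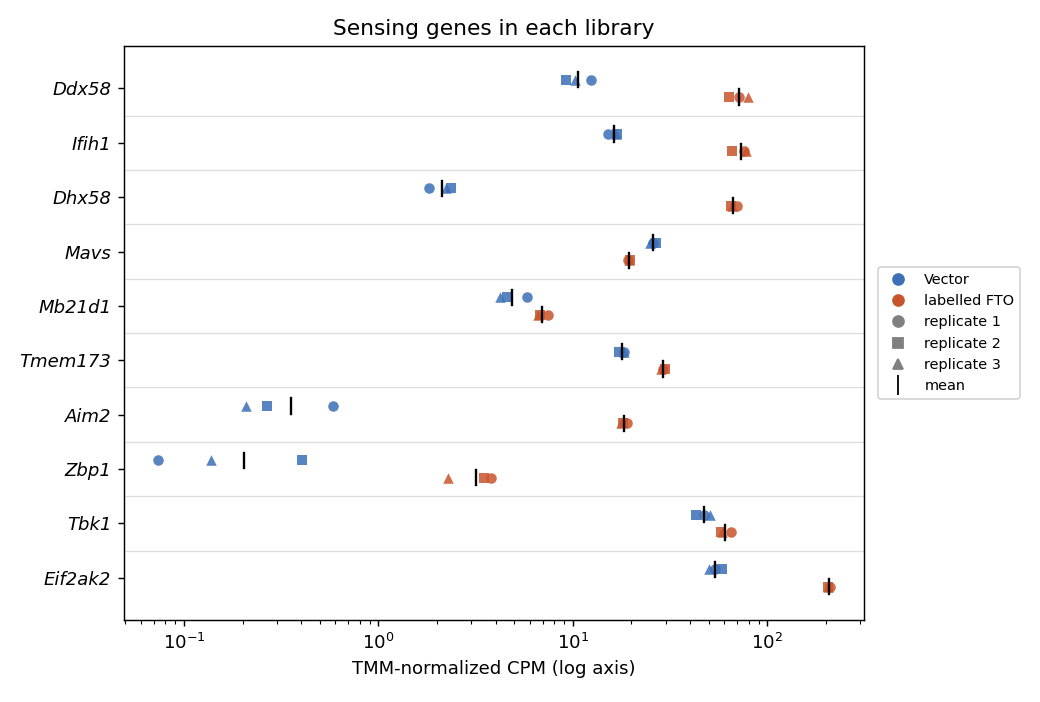
TMM-normalized CPM (log axis) of the 10 sensing genes in 3 Vector libraries and 3 libraries labelled FTO; each point is 1 library, its shape gives the replicate number and the vertical bar is the group mean. Aim2, Dhx58 and Zbp1 show the widest gaps between the groups, Tbk1, Mavs and Mb21d1 the narrowest, and Mavs is the 1 gene whose libraries labelled FTO lie lower.

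The 3 RNA receptors all rose. Ddx58 was at 12.4, 9.26 and 10.2 CPM in Vector replicates 1, 2 and 3 and at 71.3, 63.3 and 79.8 CPM in the libraries labelled FTO. Ifih1 was at 15.2, 16.9 and 16.7 CPM in Vector and at 76.0, 65.6 and 77.6 CPM in the libraries labelled FTO. In both genes replicate 2 of the libraries labelled FTO was the lowest of its group and still far above each Vector library. Ddx58, the receptor of short RNA with a 5′ triphosphate, increased by 2.76 on the log2 scale (SE 0.106, adjusted p-value 3.4e-12), which is 6.76-fold. Ifih1, the receptor of long double-stranded RNA, increased by 2.17 (SE 0.0804, adjusted p-value 2.3e-12), which is 4.49-fold.

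Dhx58, the regulator of the other 2 receptors, rose from few counts. It was at 1.83, 2.35 and 2.22 CPM in Vector, from 25, 35 and 32 counts, and at 70.1, 64.9 and 65.5 CPM in the libraries labelled FTO. Its log2 fold change was 4.96 (SE 0.101, adjusted p-value 1.6e-15 in the edgeR test). Pooled over the libraries of each group the ratio was 31.2, with an exact 95% counting interval of 25.4 to 38.8, which covers counting error only. The receptors were compared with each other within each library, since a ratio of 2 genes in the same library does not depend on the scaling. It compares counts, not levels per length of transcript. For each count of Ddx58 there were 0.148, 0.254 and 0.216 counts of Dhx58 in Vector and 0.983, 1.03 and 0.821 in the libraries labelled FTO, a difference of 2.21 in the mean log2 ratio. For each count of Ifih1 there were 0.120, 0.139 and 0.133 counts of Dhx58 in Vector and 0.922, 0.991 and 0.843 in the libraries labelled FTO, a difference of 2.79. The ratio of Ddx58 to Ifih1 moved less, by 0.59 on the log2 scale. The groups did not overlap in any of these 3 ratios, and each had p = 0.1 in a two-sided exact permutation test, the smallest value that 3 libraries against 3 can give.

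Mavs, the mitochondrial adaptor that RIG-I and MDA5 share, went the other way. It was at 25.8, 26.6 and 24.9 CPM in Vector and at 19.3, 19.7 and 19.4 CPM in the libraries labelled FTO. The spread within the second group was small (19.5 ± 0.214 CPM, SD, n = 3), and its highest library lay below the lowest of Vector. The log2 fold change was -0.40 (SE 0.0757, adjusted p-value 2.4e-04), or 1.32-fold lower. The fall of Mavs rests on the scaled counts, and was -0.40 also with library size alone and -0.41 with DESeq2 size factors. Within libraries, the counts of each receptor for 1 count of Mavs were higher in the libraries labelled FTO, which does not show the direction of Mavs itself. Ddx58 to Mavs went from 0.479, 0.348 and 0.412 in Vector to 3.70, 3.21 and 4.10 in the libraries labelled FTO. Ifih1 to Mavs went from 0.589, 0.635 and 0.671 to 3.94, 3.33 and 3.99, and Dhx58 to Mavs from 0.0708, 0.0882 and 0.0891 to 3.63, 3.30 and 3.37. Each had p = 0.1 in the exact permutation test.

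To place these changes beside the DNA in front of the genes, the RefSeq promoter windows of rat assembly GRCr8 (250 bases before and 50 after the transcription start) were searched on both strands for the core of the interferon-stimulated response element (ISRE), GAAANNGAA, bound by interferon response factors, for the GAS element TTCNNNGAA, and for the NF-κB site in its usual consensus. A window was found for 6 of the 10 genes. The ISRE core was present in 9.49%, GAS in 8.69% and the NF-κB site in 7.62% of 27370 windows. Ifih1 and Eif2ak2 each held 1 ISRE core, and Mavs, Tmem173, Aim2 and Tbk1 held none of the 3 motifs in this window. No match overlapped another motif. A match is a description of letters and was not tested as a site. The 250 bases before the start are shown for the genes with a match and for Mavs, the gene that was lower, with ISRE core letters in capitals, read 5′ to 3′ on the strand of the gene. Ifih1 (chr3:67683969-67684218, minus strand) has the core 59 bases before the start, Eif2ak2 (chr6:21940904-21941153, plus strand) has it 16 bases before the start, and Mavs (chr3:138904562-138904811, plus strand) has none.
Ifih1: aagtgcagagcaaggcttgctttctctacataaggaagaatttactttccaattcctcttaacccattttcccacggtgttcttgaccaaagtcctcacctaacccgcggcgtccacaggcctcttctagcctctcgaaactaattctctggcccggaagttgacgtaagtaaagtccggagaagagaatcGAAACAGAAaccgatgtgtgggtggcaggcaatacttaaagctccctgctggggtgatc
Eif2ak2: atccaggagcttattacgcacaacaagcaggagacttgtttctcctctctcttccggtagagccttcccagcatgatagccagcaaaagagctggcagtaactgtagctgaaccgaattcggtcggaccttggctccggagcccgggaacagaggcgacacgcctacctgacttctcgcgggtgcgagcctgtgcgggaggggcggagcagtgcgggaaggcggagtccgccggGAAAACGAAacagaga
Mavs: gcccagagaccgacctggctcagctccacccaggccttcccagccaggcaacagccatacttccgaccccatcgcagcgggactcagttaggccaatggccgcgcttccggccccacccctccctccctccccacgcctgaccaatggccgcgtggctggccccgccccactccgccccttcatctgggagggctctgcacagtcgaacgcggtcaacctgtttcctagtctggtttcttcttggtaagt

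**Figure D2:**
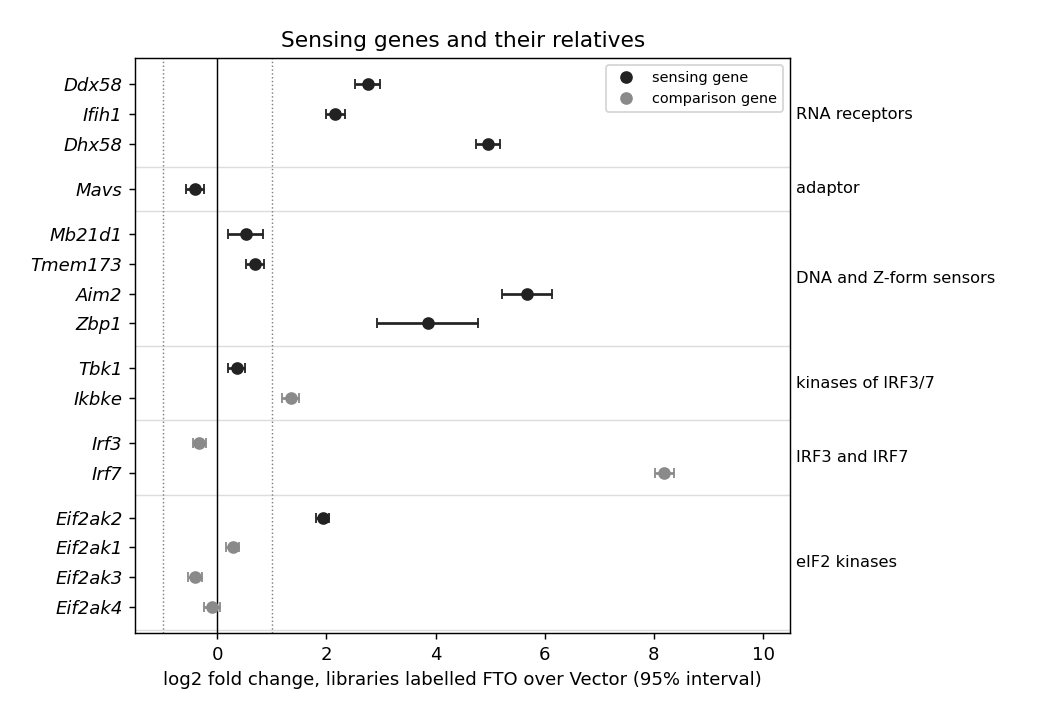
Change between the groups on the log2 scale (edgeR, Vector as the base) with its 95% confidence interval for the sensing genes (black) and comparison genes of the same families or steps (grey); dotted lines mark a 2-fold change. The 3 RNA receptors lie at 2.17 to 4.96 and Mavs at -0.40, and among the eIF2 kinases only Eif2ak2 lies beyond the right dotted line.

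Mb21d1 (cGAS) and Tmem173 (STING), the pair that senses DNA, both rose by less than 2-fold. Mb21d1 was at 5.78, 4.56 and 4.22 CPM in Vector and at 7.44, 6.80 and 6.65 CPM in the libraries labelled FTO. The groups came close, with Vector replicate 1 within 1 CPM of the lowest library labelled FTO, and 61 to 119 counts per library stood behind the values. The increase was 0.52 on the log2 scale (SE 0.153, adjusted p-value 0.00751 in the edgeR test), and its adjusted p-value ran up to 0.0439 over the 13 alternatives. Tmem173 was at 18.4, 17.3 and 18.3 CPM in Vector and at 29.1, 29.9 and 28.3 CPM in the libraries labelled FTO, an increase of 0.69 (SE 0.0758, adjusted p-value 1.0e-06). The ratio of Mb21d1 to Tmem173 within a library overlapped between the groups, at 0.315, 0.264 and 0.231 in Vector and 0.255, 0.227 and 0.235 in the libraries labelled FTO (p = 0.3, two-sided exact permutation test), and the difference of the mean log2 ratio was -0.17 with an SD of 0.222 in Vector.

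Aim2, the DNA sensor of the inflammasome, was close to the limit of counting in Vector and clearly present in the libraries labelled FTO. It had 8, 4 and 3 counts in Vector, or 0.585, 0.268 and 0.208 CPM, and 270, 240 and 317 counts in the libraries labelled FTO, or 18.9, 18.1 and 17.7 CPM. The pooled ratio was 52.2, with an exact 95% counting interval of 31.5 to 93.7. The fitted log2 fold change was 5.67 (SE 0.211), the largest of the 10 genes. Aim2 passed the filter on low counts only through the libraries labelled FTO, so it had to differ and its p-values are not given. Its adaptor Pycard rose too, from 6.20 ± 0.483 to 11.5 ± 1.84 CPM (log2 fold change 0.88, adjusted p-value 5.9e-05). For each count of Pycard there were 0.0952, 0.0400 and 0.0361 counts of Aim2 in Vector and 1.68, 1.35 and 1.81 in the libraries labelled FTO. Aim2 and Pycard are abundant in macrophages. Of 16 leukocyte markers tested, 15 were lower in the libraries labelled FTO and 1, Adgre1, was higher (6.81 ± 1.52 against 31.7 ± 3.64 CPM). Ptprc, the pan-leukocyte CD45, was at 55.0 ± 1.04 CPM in Vector and 15.1 ± 1.68 CPM in the libraries labelled FTO. The part of leukocytes in the levels of Aim2 and Pycard was not tested.

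Zbp1, the sensor of Z-form nucleic acid, had the fewest counts of the 10 genes. There were 1, 6 and 2 counts in Vector and 54, 46 and 41 in the libraries labelled FTO, that is 0.0732, 0.403 and 0.139 CPM against 3.79, 3.47 and 2.29 CPM. Replicate 3 of the libraries labelled FTO was the lowest of its group, although it was the most deeply sequenced, and Vector replicate 2 held most of the Vector counts. The pooled ratio was 14.8 (exact 95% counting interval 7.60 to 33.1). Zbp1 passed the filter on low counts only through the libraries labelled FTO, so it had to differ and its p-value is not given. The fitted log2 fold change of 3.85 had the largest standard error of the 10 genes (SE 0.430). Without Vector replicate 2 it was 4.77. Ripk3, the kinase that ZBP1 engages, increased by 0.27 only (SE 0.0621, adjusted p-value 0.00135), from 37.4 ± 1.67 to 45.2 ± 0.917 CPM.

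Tbk1, the kinase below both MAVS and STING, rose by a small amount. It was at 47.3, 43.1 and 50.7 CPM in Vector and at 65.2, 57.4 and 58.1 CPM in the libraries labelled FTO, an increase of 0.36 on the log2 scale (SE 0.0713, adjusted p-value 4.4e-04), or 1.28-fold. Its relative Ikbke (IKKε), which is inducible in many cells, was at 23.0, 22.4 and 22.7 CPM in Vector and at 52.4, 60.1 and 60.8 CPM in the libraries labelled FTO, an increase of 1.35 (SE 0.0727, adjusted p-value 2.3e-10). Within a library the ratio of Ikbke to Tbk1 went from 0.486, 0.519 and 0.448 to 0.803, 1.05 and 1.05, without overlap (p = 0.1, exact permutation test). A like contrast was seen one step further down. Irf3, the constitutive factor, fell from 57.9 ± 1.12 to 46.0 ± 0.994 CPM (log2 fold change -0.33, adjusted p-value 9.5e-05), while Irf7, its inducible relative, rose from 5.85, 4.29 and 4.64 CPM to 1483, 1468 and 1352 CPM (log2 fold change 8.19, SE 0.0802, adjusted p-value 9.4e-19). The count of Irf7 for each count of Irf3 was 0.103, 0.0741 and 0.0787 in Vector and 32.9, 32.0 and 28.7 in the libraries labelled FTO.

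Eif2ak2 (PKR), the kinase activated by double-stranded RNA, rose with little spread between libraries. It was at 53.8, 58.2 and 50.1 CPM in Vector and at 209.6, 205.6 and 205.1 CPM in the libraries labelled FTO. The increase was 1.94 on the log2 scale (SE 0.0544, adjusted p-value 7.7e-14), or 3.83-fold. The other 3 eIF2 kinases, which respond to haem loss, unfolded proteins and amino acid shortage, had smaller log2 fold changes. Eif2ak1 increased by 0.29 (adjusted p-value 2.9e-04), Eif2ak3 (PERK) changed by -0.40 (adjusted p-value 3.6e-05), and Eif2ak4 (GCN2) did not pass, at -0.09 with a 95% interval of -0.23 to 0.06 and an adjusted p-value of 0.284. For each count of Eif2ak1 there were 0.812, 0.972 and 0.825 counts of Eif2ak2 in Vector and 2.75, 2.68 and 2.73 in the libraries labelled FTO, and the ratios to Eif2ak3 and Eif2ak4 rose by 2.34 and 2.03 on the log2 scale (p = 0.1 each, exact permutation test).

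**Figure D3:**
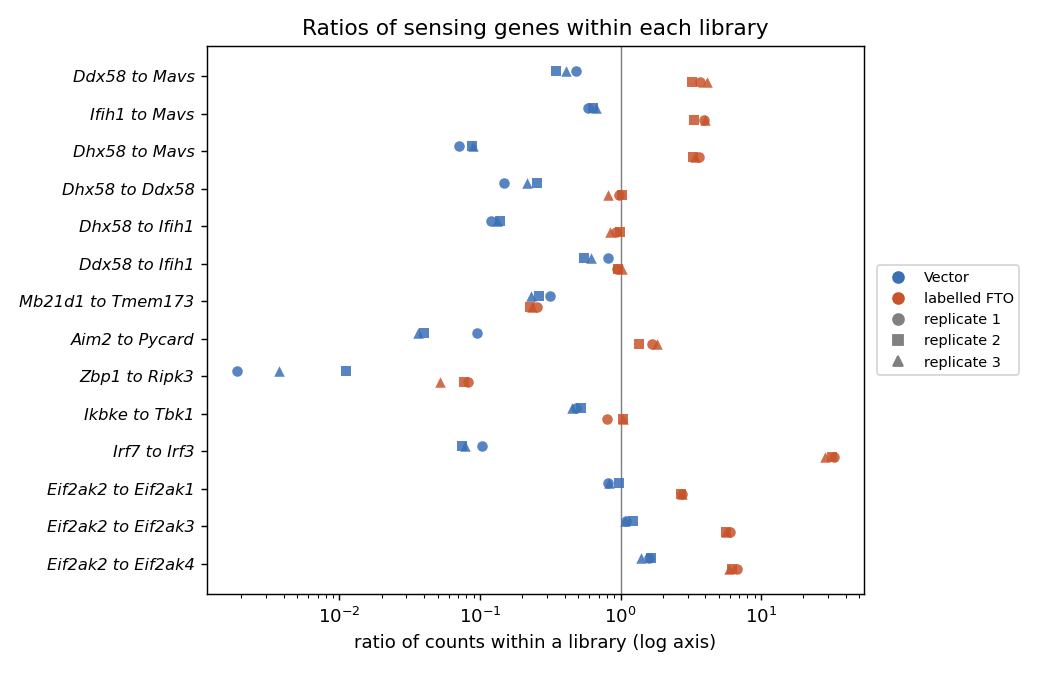
Ratio of the counts of 2 genes within each library (log axis) for 14 pairs, with Vector and the libraries labelled FTO as points whose shape gives the replicate number. In 13 pairs the groups do not overlap; Mb21d1 to Tmem173 is the pair that overlaps.

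Over the 14 ratios compared, 13 did not overlap between the groups. For single genes tested the share was 70.3%, but the pairs were selected and share genes, so that share is not a background for them. The 13 include the ratios of Aim2 and Zbp1, which had to differ. With Benjamini-Hochberg adjustment over the 14 the exact permutation p-value of each of those 13 was 0.108, so none could pass 0.05 in a design of this size.

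Other genes of the sensing pathways were taken from 10 lists by function, chosen with earlier results of these data known. Of 175 genes listed, 167 were in the files and 150 were tested, of which 72 were higher, 41 were lower and 37 did not pass the adjusted threshold. Of the 150, 7 passed the filter on low counts only through the libraries labelled FTO (Ddx60, Usp18, Il1b, Ifit1 and Oasl among them) and 1, Pld4, only through Vector. The share called was 75.3%, against the 65.9% of all genes tested. The median log2 fold change was 0.12, and 0.0977 over the genes kept by the filter in both groups. At the study's threshold 30 were higher and 7 lower, against 10.4% and 9.27% of all genes tested, and the 30 include the 7 genes that passed the filter only through the libraries labelled FTO. The plot of the lists shows that most genes stood near 0 and that a few rose by large amounts.

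**Figure D4:**
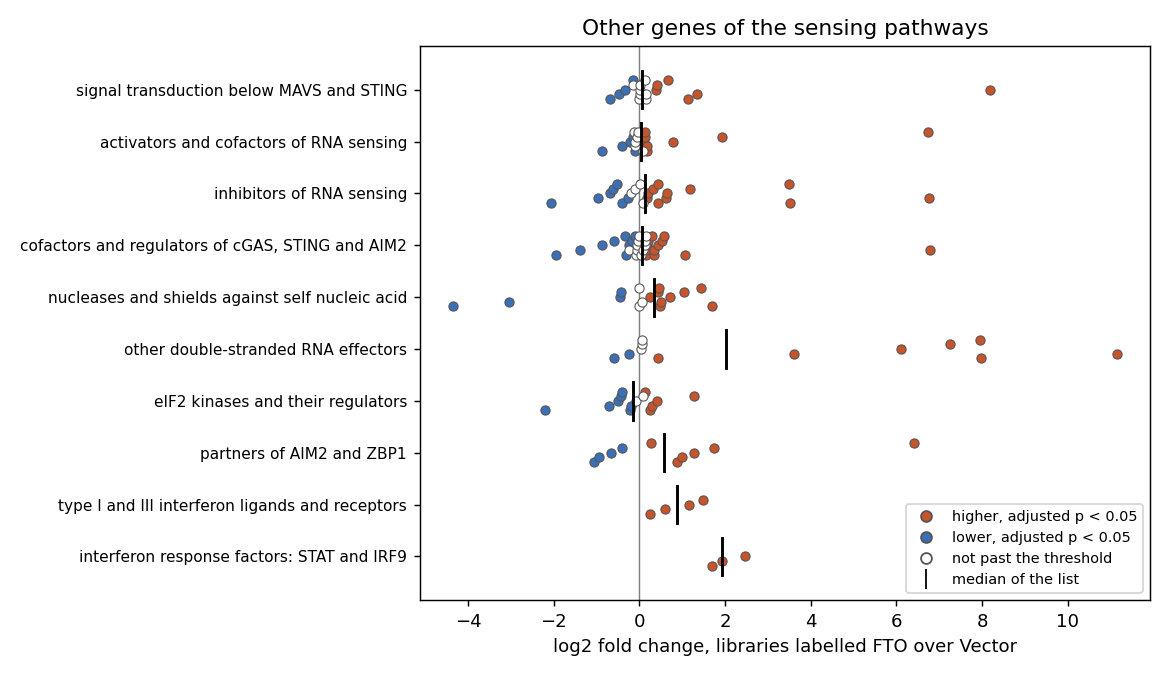
Change between the groups on the log2 scale (edgeR, Vector as the base) for each tested gene of 10 lists, filled where the adjusted p-value is under 0.05; the bar is the median of the list. Medians lie between -0.14 (eIF2 kinases and their regulators) and 2.02 (other double-stranded RNA effectors) and single genes between -4.35 and 11.15.

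Among 18 genes of signal transduction below MAVS and STING, 6 were higher, 4 lower and 8 did not pass, with a median of 0.07. The share called, 55.6%, was below the 65.9% of all genes tested. Irf7 and Ikbke were the largest increases, and the largest decreases were those of Traf5 (-0.68, adjusted p-value 6.6e-05), a TNF receptor adaptor, and Fadd (-0.47, adjusted p-value 7.3e-05), an adaptor of death receptors. Among 20 tested activators and cofactors of RNA sensing, 9 were higher and 5 lower (70.0% called), with a median of 0.03. Ddx60, a helicase linked to RIG-I signalling, had 8, 7 and 12 counts in Vector and 979, 772 and 1334 in the libraries labelled FTO, a pooled ratio of 108.2 (exact 95% counting interval 74.2 to 164.5). Trim25, the ubiquitin ligase that activates RIG-I, rose from 20.8 ± 0.218 to 79.2 ± 12.1 CPM (log2 fold change 1.93, adjusted p-value 9.9e-11). Zcchc3 (-0.86) and Dhx33 (-0.40) decreased.

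Of 22 tested inhibitors of RNA sensing, 11 were higher and 7 lower (81.8% called), with a median of 0.14. Isg15, a ubiquitin-like protein, rose from 1.69 ± 0.452 to 186.4 ± 17.0 CPM (log2 fold change 6.77, adjusted p-value 3.1e-16), and Tnfaip3 (A20), a deubiquitinase that restrains NF-κB, by 3.51. The deubiquitinase Otub2 (-2.06) and the ubiquitin ligase Smurf1 (-0.97) fell. Around cGAS, STING and AIM2, 12 of 32 tested genes were higher and 9 lower, with a median of 0.06, and the share called, 65.6%, lay beside 65.9% of all genes tested. Usp18, the protease that removes ISG15 from proteins, rose from 21, 18 and 9 counts to 1899, 1706 and 1992 counts. Insig1, a sterol-responsive protein of the endoplasmic reticulum, rose by 1.07. Lrrfip1, a nucleic acid-binding protein, fell from 264.4 ± 7.77 to 68.2 ± 4.43 CPM (log2 fold change -1.96, adjusted p-value 4.1e-14), and Enpp1, the ectoenzyme that degrades the cGAS product, from 227.6 ± 4.20 to 87.2 ± 4.99 CPM (log2 fold change -1.39, adjusted p-value 1.2e-12).

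Nucleases and shields against self nucleic acid showed a wide range, with 9 of 16 tested higher, 4 lower (81.2% called) and a median of 0.34. Adar, the deaminase that edits double-stranded RNA and so hides it from MDA5, was at 36.4, 36.6 and 36.8 CPM in Vector and at 121.3, 110.2 and 125.2 CPM in the libraries labelled FTO (log2 fold change 1.70, adjusted p-value 1.1e-12). Its relative Adarb1 fell from 143.3 ± 4.99 to 17.2 ± 2.51 CPM (log2 fold change -3.05, adjusted p-value 2.6e-14), so the 2 editing enzymes went in opposite directions. Trex1, the exonuclease that clears cytosolic DNA, rose by 1.45 (adjusted p-value 2.2e-08). Pld4, an endosomal exonuclease of macrophages and dendritic cells, fell from 13.6 ± 0.526 to 0.644 ± 0.177 CPM (log2 fold change -4.35). Pld4, 1 of the 4 lower genes, passed the filter on low counts only through Vector, so its p-value is not given. Among the macrophage markers, Csf1r was at 141.9 ± 2.31 CPM in Vector and 9.18 ± 1.29 CPM in the libraries labelled FTO. Cd14 fell by 0.74 on the log2 scale and Adgre1 rose by 2.22. A link between these markers and Pld4 was not tested.

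Of 12 other double-stranded RNA effectors tested, 7 were higher and 2 lower (75.0% called), and 4 of the 12 passed the filter only through the libraries labelled FTO. The median was 2.02 over the 12 and 0.06 over those kept in both groups. Ifit1, which binds foreign RNA ends, had 0, 2 and 0 counts in Vector and 1977, 1548 and 2160 in the libraries labelled FTO, a pooled ratio of 2693 with an exact 95% counting interval of 745.1 to 22241. Oasl, of the oligoadenylate synthetase family, had 10, 8 and 10 counts in Vector and 2553, 2019 and 2923 in the libraries labelled FTO. Both belong to gene families, and how the counting treated reads shared between relatives is not known. The RNA-binding protein Zfr fell (log2 fold change -0.60). Around the eIF2 kinases, 5 of 14 genes were higher and 7 lower (85.7% called). Atf4, the factor translated when eIF2α is phosphorylated, fell from 424.5 ± 2.65 to 260.7 ± 15.0 CPM (log2 fold change -0.70, adjusted p-value 2.0e-09) and its target Trib3 by 2.21 on the log2 scale, whereas Ddit3 (CHOP) increased by 1.28 and Ifrd1 by 0.41.

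Each of the 10 tested partners of AIM2 and ZBP1 passed the threshold, 6 higher and 4 lower, against 33.2% and 32.8% of all genes tested, and 1 of them, Il1b, passed the filter only through the libraries labelled FTO. Il1b, a cytokine that caspase-1 cleaves, had 10, 7 and 1 counts in Vector and 507, 523 and 624 in the libraries labelled FTO, a pooled ratio of 87.1 (exact 95% counting interval 54.9 to 147.3). Its fitted log2 fold change was 6.42, and 7.02 without Vector replicate 1, whereas Il18, another of the caspase-1 substrates, fell by 0.95 on the log2 scale. Mlkl, the executor of necroptosis below RIPK3, rose from 28.2 ± 1.08 to 94.7 ± 3.60 CPM (log2 fold change 1.75, adjusted p-value 7.4e-13). Nek7, a partner of NLRP3, changed by -1.05.

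Interferon ligands, the output of the sensing pathways, had few or no counts. Ifnb1 was listed at 0 in all 6 libraries, and 9 of the 14 interferon ligands and receptors found, each a ligand, had no count in any library. Ifne, a type I interferon named after its values were seen, had 2, 0 and 0 counts in Vector and 1, 0 and 8 in the libraries labelled FTO, and was too low to be tested. A count of 0 allows up to 3 counts, or 0.168 to 0.227 CPM depending on the library. Mfn2, a mitochondrial fusion gene that most cells use and named here after its value was seen, was also listed at 0 in all 6, so a 0 in these files need not mean absence of the transcript. The 4 receptor genes tested were all higher, against 33.2% of all genes tested, with log2 fold changes of 0.25 to 1.48. The largest were those of Ifnar1 (1.16, adjusted p-value 3.9e-12) and Ifnlr1 (1.48, adjusted p-value 2.0e-10). Stat2 and Irf9, which carry the interferon signal to ISRE sites, rose as well, by 2.46 and 1.94 on the log2 scale, with adjusted p-values of 9.1e-16 and 3.5e-13 in the edgeR test.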

How the data were processed

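RNA-seq was performed on 6 NRCF libraries, 3 Vector and 3 labelled FTO, grouped by the genotype labels, with replicate numbers from the titles. The deposited files hold the authors' raw read counts for each gene symbol, as whole numbers. The submitters' processing notes name Trimmomatic and the build rn6, and the aligner, counter, annotation and strand setting are not given in the sources used here, so overlapping, antisense and near-identical genes are uncertain. Genes were kept with filterByExpr of edgeR 4.0.16 (minimum count 10), scaled by TMM and compared by the two-sided quasi-likelihood test in R 4.3.3, with Benjamini-Hochberg adjustment over all genes tested. The SE came from the fold change and its F statistic. Pooled ratios carry exact binomial intervals, and ratios of 2 genes are given as raw counts, with 0.5 added to each count for the mean log2 ratios and their tests. Intervals cover counting error only, as the reads carry no molecular identifiers.

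The members and gene lists were chosen with earlier results of these data known. Named genes were the 10 members, 16 fixed comparison genes and, in each list, the 2 largest increases and 2 largest decreases among genes with adjusted p under 0.05, no overlap and a mean of at least 100 counts. Some genes this rule names are not reported here. Marker genes and Mfn2 were named after their values were seen. Promoter windows were matched by symbol or gene ID, with RefSeq coordinates of GRCr8. Alternatives were DESeq2 1.42.0, limma-voom (limma 3.58.1), other scalings and filters, a replicate block and leaving out each library. The edgeR procedure was tested on simulated counts.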

Additional observations from a re-analysis of the deposited data

How the results depend on the processing

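All 10 sensing genes kept their direction and their side of the adjusted threshold under each of the 13 alternatives, and 6 passed the study's threshold under each. Aim2 and Zbp1, which are among the 10 and the 6, had to differ. Of the 12941 genes tested, 8531 passed the adjusted threshold in the main fit and 7795 with DESeq2. The number of other pathway genes past the adjusted threshold was 113, and ran from 100 to 112 over DESeq2 (102), limma-voom, other scalings and the fits without a single library, with 113 again under a mean of at least 10 counts. At the study's threshold it was 36 or 37. The other 44 named genes tested also kept their call under all 13, Fto among them as not called (log2 fold change 0.05 to 0.08). Libraries with equal numbers in their titles were not paired, as their deviations from the group means correlated at 0.00284, -0.0693 and 0.0207 for equal numbers. With the replicate block, 108 other pathway genes and all 10 sensing genes passed, beside 8399 of all 12941 genes tested. The ratios of 2 genes kept their sign with 1 added to each count, when paired by number and without each library, and 13 of 14 did not overlap except without Vector replicate 3 (14). With 3 pairs the sign-flip test cannot go below 0.25. Depth limits Aim2 and Zbp1, whose Vector levels rest on 1 to 8 counts per library. Leaving out 1 library moved the fitted fold by over 1.5 times for Zbp1 (log2 3.85 to 4.77 without Vector replicate 2), Il1b (6.42 to 7.02 without Vector replicate 1) and Ifit1 (11.15 to 13.85 without Vector replicate 2, which held its 2 Vector counts).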
